A study of Rattus norvegicus with 12 samples.

Results

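Matrix metalloproteinase genes (Mmp2, Mmp3, Mmp7, Mmp9, Mmp12, Mmp13 and Mmp14) and the inhibitor genes Timp1, Timp2 and Timp3 were followed across the prostates of male rats with or without partial obstruction of the bladder outlet, given Eviprostat or its vehicle. These 10 genes, chosen by name, were 10 of the 14693 named genes measured on the arrays. They were carried by 11 probes, Mmp2 having a pair of them, and all 11 were bright enough to be tested. Partial obstruction was made by tying a rubber ring round the proximal urethra, and Eviprostat is a plant-based preparation used against benign prostatic hyperplasia. The rats were 10 weeks old and the prostate was removed 2 h after the last dose.

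The first group, obstruction/Eviprostat, was operated and received Eviprostat at 18 mg/kg per dose, 2 doses a day, for 5 days. The second, obstruction/vehicle, was operated and received the vehicle, 0.1% Tween 80. The third, sham/Eviprostat, had a sham operation and the same drug schedule, and the fourth, sham/vehicle, had a sham operation and the vehicle. Dosing began the day after the operation in obstructed rats and 5 days after it in sham rats, so obstruction and the time since surgery cannot be told apart. Each group of 5 or 6 rats gave pooled tissue and 3 arrays, which the labels call biological replicates, so every p-value below measures the spread between arrays, which may be technical, and not that between animals.

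Matrix metalloproteinases are zinc-dependent enzymes that cut collagens, elastin, proteoglycans and many secreted or cell surface proteins. Most are made as inactive proenzymes that another proteinase must cut, and the TIMPs are proteins that bind the active site of the enzymes and block it. In the prostate the balance between both families has been studied mainly in ductal remodelling and tumour invasion, and many members are made by stromal and inflammatory cells as well as by epithelium.

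Each array carried the group's own RNA in the Cy5 channel and sham/vehicle RNA in the Cy3 channel. The protocols give 1500 ng of labelled RNA for sham/vehicle and 300 ng for the other groups. This amount cannot be told apart from the sham/vehicle group in any comparison with it. Values are log2(Cy5/Cy3), and groups were compared with each other and never with a ratio of 0, because the dyes were not swapped. Cy5 was well above background for 70.9 to 88.4% of the spots of an array. Each of the 3 slides held 1 array of every group, with a group always in the same place, which therefore cannot be told apart from the group itself. Differences within a slide are given as a range over the 3 slides. Groups of 3 arrays often did not overlap. This held for 37% of all genes in obstruction/vehicle against sham/vehicle and 37.9% in obstruction/Eviprostat against obstruction/vehicle. It held for 20% in obstruction/Eviprostat against sham/vehicle, 17.6% in sham/Eviprostat against sham/vehicle and 22.4% in obstruction/Eviprostat against sham/Eviprostat. The arrays of slide 1 were scanned on another day than those of slides 2 and 3 and were dimmer in Cy5. The prostate markers Pbsn and Sbp were above background on all 12 arrays. Lower RNA of a gene in these pooled tissues can mean fewer cells that make it or less RNA per cell, which cannot be told apart.

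Some arrays, 3 in number, held spots that changed the background correction of the whole array. These 12 spots, among 540216, had a signal more than 100 units below their local background. There were 4 on obstruction/Eviprostat replicate 1, 6 on obstruction/vehicle replicate 2 and 2 on sham/vehicle replicate 1, and none belonged to a metalloproteinase or TIMP probe named above. With them included, the 1st percentile of corrected Cy3 was 201, 619 and 257 on those arrays, against 55.2 to 69.1 on the other 9. They were set aside here, a choice made after the values of Mmp9 had been seen. Mmp9 had a ratio of 2.51 on obstruction/vehicle replicate 2 without these spots and 0.80 with them, while its uncorrected Cy5 intensity there was 2296, close to the 2422 of replicate 3.

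**Figure D1:**
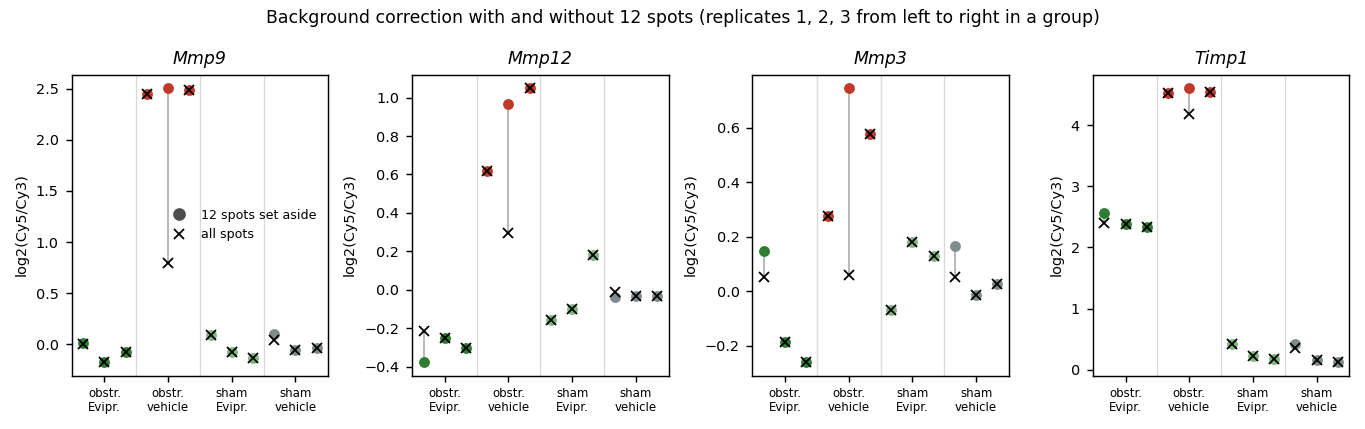
Log2(Cy5/Cy3) of Mmp9, Mmp12, Mmp3 and Timp1 on each array (vertical axes), by group (horizontal axis), with the 12 spots set aside (filled points) and with all spots in the background correction (crosses). The crosses of obstruction/vehicle replicate 2 lie below its filled points, at 0.80 against 2.51 for Mmp9 and at 4.18 against 4.61 for Timp1.

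In obstructed rats given vehicle, 6 of the 10 genes were higher than in sham rats given vehicle and 0 were lower. Mmp2, Mmp3, Mmp9 and Mmp12 rose among the 7 metalloproteinases, and Timp1 and Timp2 among the 3 inhibitors. The median log2 difference of the 10 genes was 0.73, beside 0.0062 over all 14693 genes, of which 15.8% were called higher and 8.94% lower. A call is an adjusted p below 0.05 in limma (moderated statistics, 3 arrays a group, Benjamini-Hochberg over all 36098 probes). At an unadjusted p below 0.05 the counts were also 6 higher and 0 lower, beside 20.6 and 14.3% of all genes. In obstructed rats given Eviprostat, 7 of the 10 genes were lower than in obstructed rats given vehicle and 1, Mmp7, was higher. The median there was -1.13, beside -0.0074 over all genes, of which 7.32% were called higher and 14.5% lower. Both comparisons use the obstruction/vehicle arrays, so their values are given side by side and are not set against each other. With arrays centred on their median in place of loess, 4 genes were called higher in the first comparison and 4 lower in the second. Mmp2 (1.5, adjusted p = 0.0643) and Mmp3 (0.62, adjusted p = 0.393) lost their calls in the first, and Mmp3 (-0.74, adjusted p = 0.286), Mmp14 (-1.03, adjusted p = 0.573) and Timp2 (-1.19, adjusted p = 0.27) in the second.

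**Figure D2:**
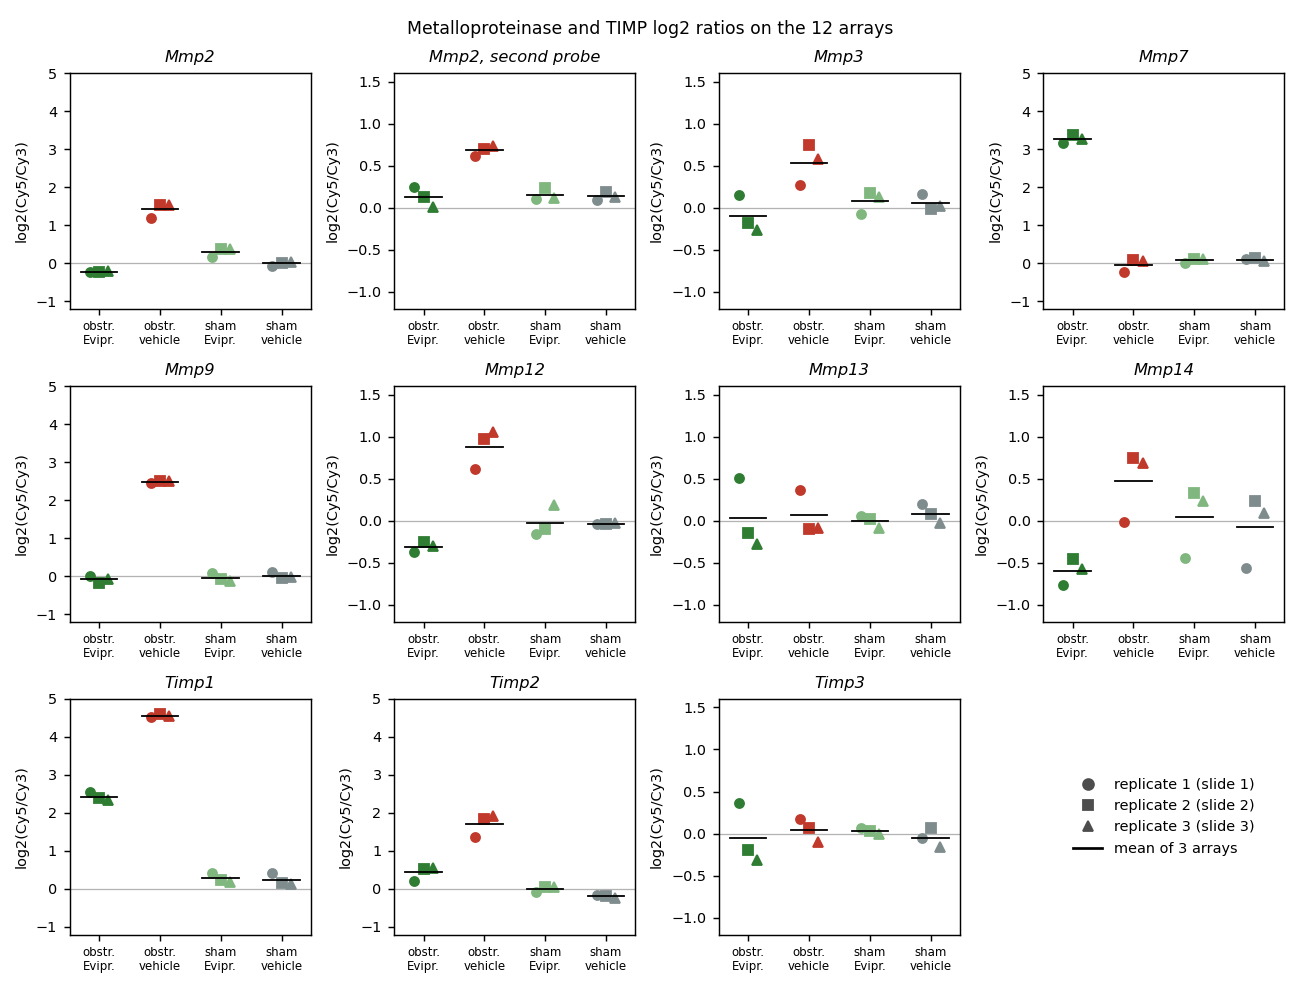
Log2(Cy5/Cy3) (vertical axes) of the 11 probes on each of the 12 arrays, by group (horizontal axis). Shapes mark the replicate, which is also the slide, and bars the mean of 3 arrays. The obstruction/vehicle arrays stand above the other groups for Mmp9 and Timp1, and the obstruction/Eviprostat arrays for Mmp7.

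**Figure D3:**
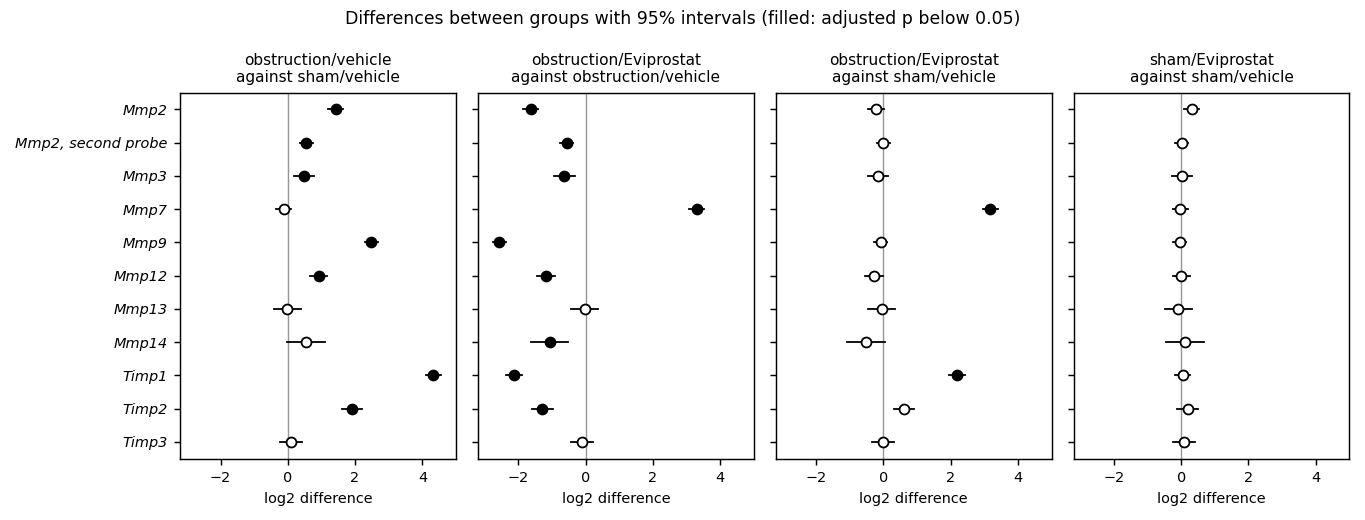
Log2 difference (horizontal axes) of each probe in 4 comparisons, with 95% intervals from the limma fit; filled points have an adjusted p below 0.05. Timp1 reaches 4.33 in obstruction/vehicle against sham/vehicle, and Mmp7 reaches 3.31 in obstruction/Eviprostat against obstruction/vehicle.

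Mmp9, gelatinase B, degrades denatured collagen and the type IV collagen of basement membranes and is stored in neutrophil granules. Its probe lies at chr3:155898499-155898558 of rn3, on the plus strand, and was printed 10 times on each array. The log2 ratio was 0.01, -0.17 and -0.08 on the obstruction/Eviprostat arrays, 2.45, 2.51 and 2.49 on the obstruction/vehicle arrays, 0.09, -0.08 and -0.14 on the sham/Eviprostat arrays and 0.10, -0.05 and -0.04 on the sham/vehicle arrays. Only the 3 obstruction/vehicle arrays were high, and they overlapped no other group. Uncorrected Cy5 was 903, 2296 and 2422 on those 3 arrays and between 379 and 501 on the other 9, with a local background near it (340 to 355), so the low side of each fold is close to the background. Mmp9 was 5.58-fold higher in obstruction/vehicle than in sham/vehicle (log2 difference 2.48, SE 0.09, limma adjusted p = 1.71e-09, 2.36 to 2.56 within slides). It was 5.91-fold lower in obstruction/Eviprostat than in obstruction/vehicle (log2 difference -2.56, SE 0.09, limma adjusted p = 1.65e-09). Without background correction the log2 differences of Mmp9 were 1.36 and -1.38, and with all spots in the correction 1.93 and -1.99, each still called.

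Mmp2, gelatinase A, cuts the same substrates and is made mostly by fibroblasts and other stromal cells. The brighter of its probes (rn3, chr19:15251047-15251106, minus strand) was printed 10 times on each array. Its log2 ratio was -0.23, -0.22 and -0.21 on the obstruction/Eviprostat arrays, 1.20, 1.52 and 1.53 on the obstruction/vehicle arrays, 0.17, 0.38 and 0.36 on the sham/Eviprostat arrays and -0.06, 0.02 and 0.04 on the sham/vehicle arrays. The obstruction/vehicle arrays were the highest and the obstruction/Eviprostat arrays the lowest of the 4 groups, with no overlap. The difference of obstruction/Eviprostat from sham/vehicle was not called (limma adjusted p = 0.624). Mmp2 was 2.67-fold higher in obstruction/vehicle than in sham/vehicle (log2 difference 1.42, SE 0.10, limma adjusted p = 6.74e-07). It was 3.11-fold lower in obstruction/Eviprostat than in obstruction/vehicle (log2 difference -1.64, SE 0.10, limma adjusted p = 2.33e-07).

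The other Mmp2 probe gave smaller differences in the same directions. It read 0.24, 0.13 and 0.01 on the obstruction/Eviprostat arrays, 0.62, 0.70 and 0.74 on the obstruction/vehicle arrays, 0.11, 0.23 and 0.11 on the sham/Eviprostat arrays and 0.10, 0.18 and 0.13 on the sham/vehicle arrays. Its log2 difference was 0.55 in obstruction/vehicle against sham/vehicle (SE 0.09, limma adjusted p = 0.000559) and -0.56 in obstruction/Eviprostat against obstruction/vehicle (SE 0.09, limma adjusted p = 0.00058). The probes overlap over 21 bases, and their sequences are shown there because they differ in 3 of those bases, in capitals, with G6T, A13G and C19T counted from 1 at the 5′ end of the stretch, the brighter probe's base given first.
Mmp2, brighter probe: ttgtcGgacatcActgcaCga
Mmp2, other probe: ttgtcTgacatcGctgcaTga

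Mmp12, macrophage elastase, cuts elastin and is made chiefly by macrophages. Log2 ratios of Mmp12 were -0.38, -0.25 and -0.31 on the obstruction/Eviprostat arrays, 0.62, 0.97 and 1.05 on the obstruction/vehicle arrays, -0.16, -0.10 and 0.18 on the sham/Eviprostat arrays and -0.04, -0.03 and -0.03 on the sham/vehicle arrays. All 3 obstruction/vehicle arrays lay above the other 9, and all 3 obstruction/Eviprostat arrays lay below those of every other group. The differences of obstruction/Eviprostat from sham/vehicle (limma adjusted p = 0.575) and from sham/Eviprostat (limma adjusted p = 0.329) were not called. Mmp12 was 1.88-fold higher in obstruction/vehicle than in sham/vehicle (log2 difference 0.91, SE 0.12, limma adjusted p = 0.000129, 0.66 to 1.08 within slides). It was 2.28-fold lower in obstruction/Eviprostat than in obstruction/vehicle (log2 difference -1.19, SE 0.12, limma adjusted p = 1.66e-05). Without background correction these log2 differences of Mmp12 were 0.48 and -0.59.

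Mmp3, stromelysin-1, cuts proteoglycans and fibronectin and activates other proenzymes of the family. It was the dimmest of the 10 genes, above background on 0 obstruction/Eviprostat, 3 obstruction/vehicle, 2 sham/Eviprostat and 1 sham/vehicle arrays. The log2 ratio was 0.15, -0.18 and -0.26 in obstruction/Eviprostat, 0.28, 0.74 and 0.58 in obstruction/vehicle, -0.07, 0.18 and 0.13 in sham/Eviprostat and 0.17, -0.01 and 0.03 in sham/vehicle. The obstruction/vehicle arrays were above those of the other groups, replicate 1 by the least. The log2 difference of Mmp3 in obstruction/vehicle against sham/vehicle was 0.47 (SE 0.14, limma adjusted p = 0.0284, 0.11 to 0.76 within slides). That call was lost with all spots in the background correction (0.28, limma adjusted p = 0.211) and without obstruction/vehicle replicate 2 (0.37, 0.125) or 3 (0.45, 0.0875) or sham/vehicle replicate 2 (0.43, 0.0961) or 3 (0.46, 0.085), and by the Cy5 level alone (0.45, 0.0587). By its mean Cy5 level Mmp3 was 1.43-fold lower in obstruction/Eviprostat, where it was not well above background, than in obstruction/vehicle. This value comes from 1 channel and is open to dye bias. The log2 ratios differed by -0.63 (limma adjusted p = 0.00627), by -0.93 to -0.13 within slides and by -2.68 to -0.18 under the processing alternatives. With all spots in the correction that difference was not called (adjusted p = 0.0589).

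Mmp13, collagenase 3, cuts fibrillar collagen. Its ratio on the log2 scale was 0.51, -0.14 and -0.27 on the obstruction/Eviprostat arrays, 0.37, -0.10 and -0.09 on the obstruction/vehicle arrays, 0.06, 0.02 and -0.09 on the sham/Eviprostat arrays and 0.20, 0.08 and -0.02 on the sham/vehicle arrays. The groups overlapped, and the slide 1 array was the highest in every group. The log2 difference was -0.02 in obstruction/vehicle against sham/vehicle (95% interval -0.42 to 0.38) and -0.03 in obstruction/Eviprostat against obstruction/vehicle (-0.43 to 0.37), neither of them called.

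Mmp7, matrilysin, is a small enzyme made by glandular epithelium, where it releases cell surface proteins and activates defensins of the gut in mice. The log2 ratio was 3.17, 3.37 and 3.27 on the obstruction/Eviprostat arrays, -0.24, 0.07 and 0.07 on the obstruction/vehicle arrays, -0.0009, 0.10 and 0.12 on the sham/Eviprostat arrays and 0.10, 0.13 and 0.05 on the sham/vehicle arrays. The 3 obstruction/Eviprostat arrays stood alone and the other 9 overlapped. Uncorrected Cy5 intensities of Mmp7 were 67972, 282236 and 331041 in obstruction/Eviprostat, 7981, 32424 and 42334 in obstruction/vehicle, 8558, 48873 and 60724 in sham/Eviprostat and 7173, 35495 and 44044 in sham/vehicle. No Mmp7 spot was saturated, and slide 1 was the dim one in each group.

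Mmp7 was 9.89-fold higher in obstruction/Eviprostat than in obstruction/vehicle (log2 difference 3.31, SE 0.10, limma adjusted p = 5.24e-10, 3.20 to 3.42 within slides). By size this was rank 80 of 36098 probes. It was 9.05-fold higher in obstruction/Eviprostat than in sham/vehicle (log2 difference 3.18, limma adjusted p = 1.94e-08), the rank 2 difference of that comparison. Its log2 difference in obstruction/vehicle against sham/vehicle was -0.13 (95% interval -0.35 to 0.093, limma adjusted p = 0.449).

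The Mmp7 probe lies at chr8:4533647-4533706 of rn3 on the plus strand, and the probes of Mmp13, Mmp12 and Mmp3 lie at chr8:4168554-4168613, chr8:4259057-4259413 and chr8:4325061-4325526 on the same strand. In the RefSeq annotation of GRCr8 these 4 genes belong to a cluster on chromosome 8 whose order is Mmp13, Mmp12, Mmp1b, Mmp3, Mmp1, Mmp10, Mmp8, Mmp27, Mmp20 and Mmp7. The first 30 of the 60 bases of the Mmp7 probe are given to identify the transcript that stood apart.
Mmp7 probe: agtctgacaaatctcaggtaacacgacaga

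RefSeq promoter sequences (GRCr8, 250 bases before to 50 after the start) were at hand for 7 of the 10 genes, and Mmp2, Mmp9 and Mmp14 had no entry in the table used here. The 120 bases before the start are printed for the 4 clustered genes and for Timp1, because genes of 1 cluster that share these motifs differed in their response. For Mmp3 the promoter start used lies inside the annotated gene, which begins at chr8:12925267. Capitals mark TGAGTCA on either strand, the letters bound by AP-1 (Fos and Jun proteins), TGAGTAA, a related sequence, and TATAAA, the TATA box.
Mmp13 chr8:12782709-12782828, plus strand: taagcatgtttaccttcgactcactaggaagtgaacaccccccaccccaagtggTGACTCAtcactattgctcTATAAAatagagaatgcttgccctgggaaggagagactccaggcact
Mmp12 chr8:12866532-12866651, plus strand: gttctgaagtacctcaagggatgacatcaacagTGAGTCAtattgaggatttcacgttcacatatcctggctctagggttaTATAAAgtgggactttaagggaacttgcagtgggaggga
Mmp3 chr8:12925161-12925280, plus strand: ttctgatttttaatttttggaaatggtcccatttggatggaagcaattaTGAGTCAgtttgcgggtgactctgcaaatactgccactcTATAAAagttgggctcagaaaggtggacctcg
Mmp7 chr8:13132923-13133042, plus strand: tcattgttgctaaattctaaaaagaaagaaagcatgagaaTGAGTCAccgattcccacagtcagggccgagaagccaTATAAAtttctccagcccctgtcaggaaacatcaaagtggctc
Timp1 chrX:3771123-3771242, minus strand: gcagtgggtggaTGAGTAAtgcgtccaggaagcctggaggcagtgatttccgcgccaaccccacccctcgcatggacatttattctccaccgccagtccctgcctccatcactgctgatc

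TGAGTCA or its reverse TGACTCA was found in 4 of the 7 promoters, those of Mmp13, Mmp12, Mmp3 and Mmp7, and in 4.63% of all 33469 promoters. It began 66, 87, 71 and 80 bases before the start in that order. The same 4 held TATAAA on either strand, which 14.2% of all promoters did. TGAGTAA or its reverse was found in those of Mmp3 and Timp1, and in 2.9% of all, but in Mmp3 from -144 to -138, outside the bases printed. These letters are a description of the sequence and say nothing of binding. Of the 4 promoters with both motifs, those of Mmp3 and Mmp12 belong to genes that were higher in obstruction/vehicle, that of Mmp7 to the gene that was higher in obstruction/Eviprostat, and that of Mmp13 to a gene called in neither comparison.

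Mmp20, enamelysin, the neighbour of Mmp7 in the cluster and known from tooth enamel, was looked at after its values were seen. Its log2 ratio was 0.65, 1.00 and 1.25 on the obstruction/Eviprostat arrays, -0.21, -0.19 and -0.06 on the obstruction/vehicle arrays, -0.18, 0.25 and 0.28 on the sham/Eviprostat arrays and -0.08, 0.09 and 0.17 on the sham/vehicle arrays. It was well above background on all 3 obstruction/Eviprostat arrays and on 2 sham/Eviprostat arrays. The log2 ratios differed by 1.12 between obstruction/Eviprostat and obstruction/vehicle and by 0.91 between obstruction/Eviprostat and sham/vehicle. Mmp20 passed the filter on dim probes only through the obstruction/Eviprostat arrays, where it is high, so no test of it is given.

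Mmp14, a metalloproteinase anchored in the cell membrane, activates pro-Mmp2 together with Timp2. Its log2 ratio was -0.76, -0.46 and -0.58 on the obstruction/Eviprostat arrays, -0.02, 0.74 and 0.69 on the obstruction/vehicle arrays, -0.44, 0.33 and 0.23 on the sham/Eviprostat arrays and -0.56, 0.24 and 0.09 on the sham/vehicle arrays. Slide 1 was the lowest in every group, and the obstruction/vehicle and sham/vehicle arrays overlapped across slides. The log2 difference in obstruction/vehicle against sham/vehicle was 0.55 (SE 0.26, limma adjusted p = 0.166), 0.50 to 0.60 within slides. With the slide as a block the limma adjusted p of Mmp14 was 0.000395, and the count of genes called higher became 7 of 10. The block raised the shares of all genes too, to 24.4% called higher and 18.7% lower. Mmp14 was 2.10-fold lower in obstruction/Eviprostat than in obstruction/vehicle (log2 difference -1.07, SE 0.26, limma adjusted p = 0.0106, -1.26 to -0.74 within slides). That call was lost without obstruction/vehicle replicate 2 (-0.93, limma adjusted p = 0.052), without background correction (-0.90, adjusted p = 0.0599) and with median centring, and the uncalled difference from sham/vehicle was called without obstruction/vehicle replicate 1 (0.79, adjusted p = 0.0446).

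Timp1, a secreted inhibitor that also binds pro-Mmp9, was raised most of the 10 genes in obstruction/vehicle. Its log2 ratio was 2.56, 2.39 and 2.33 on the obstruction/Eviprostat arrays, 4.54, 4.61 and 4.54 on the obstruction/vehicle arrays, 0.42, 0.23 and 0.18 on the sham/Eviprostat arrays and 0.42, 0.16 and 0.13 on the sham/vehicle arrays. The obstruction/Eviprostat arrays lay between the obstruction/vehicle arrays and both sham groups, which overlapped each other. Uncorrected Cy5 intensity was 3123, 11323 and 11906 in obstruction/Eviprostat, 25705, 88412 and 94118 in obstruction/vehicle and 817, 2396 and 2599 in sham/vehicle. The probe (rn3, chrX:12548256-12549259, minus strand) spans a genomic stretch longer than itself, and its 60 bases are given for the transcript with the widest range among the 10 genes.
Timp1 probe: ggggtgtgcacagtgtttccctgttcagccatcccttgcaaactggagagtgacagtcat

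Timp1 was 20.1-fold higher in obstruction/vehicle than in sham/vehicle (log2 difference 4.33, SE 0.11, limma adjusted p = 9.04e-11, 4.12 to 4.45 within slides), rank 28 of 36098 probes by size. It was 4.39-fold lower in obstruction/Eviprostat than in obstruction/vehicle (log2 difference -2.13, SE 0.11, limma adjusted p = 3.12e-08). Against sham/vehicle it was 4.58-fold higher in obstruction/Eviprostat (log2 difference 2.19, SE 0.11, limma adjusted p = 1.41e-06), the rank 6 difference of that comparison.

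Timp2 inhibits most metalloproteinases and takes part in the activation of pro-Mmp2. Its log2 ratio was 0.22, 0.53 and 0.55 on the obstruction/Eviprostat arrays, 1.37, 1.85 and 1.93 on the obstruction/vehicle arrays, -0.08, 0.05 and 0.06 on the sham/Eviprostat arrays and -0.15, -0.18 and -0.23 on the sham/vehicle arrays. The 4 groups did not overlap, but sham/Eviprostat against sham/vehicle was not called (limma adjusted p = 0.734), and 17.6% of all genes did not overlap there. Timp2 was 3.74-fold higher in obstruction/vehicle than in sham/vehicle (log2 difference 1.90, SE 0.14, limma adjusted p = 7.34e-07, 1.52 to 2.16 within slides). It was 2.43-fold lower in obstruction/Eviprostat than in obstruction/vehicle (log2 difference -1.28, SE 0.14, limma adjusted p = 2.86e-05).

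Timp3 is held in the extracellular matrix and also inhibits ADAM proteinases. Log2 ratios of Timp3 were 0.36, -0.20 and -0.31 on the obstruction/Eviprostat arrays, 0.17, 0.07 and -0.10 on the obstruction/vehicle arrays, 0.06, 0.03 and -0.003 on the sham/Eviprostat arrays and -0.06, 0.07 and -0.15 on the sham/vehicle arrays. The groups overlapped. The log2 difference of Timp3 was 0.10 in obstruction/vehicle against sham/vehicle (95% interval -0.23 to 0.42) and -0.10 in obstruction/Eviprostat against obstruction/vehicle (-0.42 to 0.23), neither called.

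Prostates of obstructed rats given Eviprostat were also compared with those of sham rats given vehicle. Mmp7 and Timp1 were higher, 2 of the 10 genes, and 0 were lower, beside 0.701% of all genes called higher and 0.415% lower. At an unadjusted p below 0.05, 3 of the 10 were higher and 1 lower, beside 5.17 and 4.51% of all genes. The uncalled log2 differences were -0.22 for Mmp2, -0.08 for Mmp9, -0.28 for Mmp12, -0.52 for Mmp14 (limma adjusted p = 0.654) and 0.62 for Timp2 (limma adjusted p = 0.0833). With the slide as a block, Timp2 (limma adjusted p = 0.00147) was called higher and Mmp14 (adjusted p = 0.00475) lower, while 5.35% of all genes were called higher and 3.89% lower. Timp2 was called without the block too when obstruction/vehicle replicate 1 was left out of the fit (adjusted p = 0.0113).

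In sham rats, Eviprostat against vehicle gave 0 genes higher and 0 lower of the 10 in limma, beside 1.74% of all genes called higher and 0.402% lower, and 1 higher and 0 lower at an unadjusted p below 0.05, beside 6.51 and 4.2% of all genes. The gene with the smallest p was Mmp2, with a log2 difference of 0.31 by its brighter probe (limma adjusted p = 0.199). With the slide as a block this Mmp2 probe was called (limma adjusted p = 0.0194), as were 7.15% of all genes higher and 3.46% lower. The other Mmp2 probe gave 0.01 (limma adjusted p = 0.989) and was not called with the block (limma adjusted p = 0.942).

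Among rats given Eviprostat, obstruction against sham gave 2 genes higher and 1 lower, beside 1.1% of all genes called higher and 2.43% lower. Mmp7 was 9.19-fold higher (log2 difference 3.20, SE 0.10, limma adjusted p = 3.57e-09) and Timp1 4.44-fold higher (2.15, SE 0.11, adjusted p = 1.61e-07). Mmp2 was 1.44-fold lower by its brighter probe (log2 difference -0.53, SE 0.10, limma adjusted p = 0.0146), while its other probe gave -0.02 and was not called, and the mean of both gave -0.28, not called. The Mmp2 call was also lost without replicate 2 or 3 of obstruction/Eviprostat or of sham/Eviprostat (-0.53 to -0.49, limma adjusted p = 0.0613 to 0.0781), without background correction (-0.46, 0.0808) and with median centring (-0.72, 1.0). With the slide as a block, Timp2 (0.43, limma adjusted p = 0.0106) was called higher and Mmp14 (-0.64, adjusted p = 0.000474) lower as well, beside 6.2% of all genes higher and 8.76% lower.

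The effect of Eviprostat in obstructed rats was tested against its effect in sham rats as an interaction. It differed for 8 of the 10 genes, 1 with a more positive effect in obstructed rats and 7 with a more negative one, beside 5.4% and 12.6% of all genes. For Mmp7 the effect in obstructed rats exceeded that in sham rats by 3.33 on the log2 scale (SE 0.14, limma adjusted p = 1.54e-08). For Mmp9 the difference was -2.52 (SE 0.13, limma adjusted p = 7.07e-08), and for Timp1 -2.18 (SE 0.15, adjusted p = 9.25e-07). Mmp13 (0.06, limma adjusted p = 0.934) and Timp3 (-0.18, adjusted p = 0.693) were not called. The interaction of Mmp14 (-1.19, limma adjusted p = 0.0439) was lost when any of 9 of the 12 arrays was left out (-1.27 to -0.95, adjusted p = 0.0609 to 0.108), all but sham/Eviprostat replicate 1, obstruction/vehicle replicate 1 and sham/vehicle replicate 2. That of Mmp3 (-0.65, limma adjusted p = 0.0407) was lost without replicate 2 or 3 of any group (-0.63 to -0.54, adjusted p = 0.0863 to 0.108). With all spots in the background correction, Mmp3 (-0.49, adjusted p = 0.134) and Mmp14 (-1.11, adjusted p = 0.0799) were not called. With median centring the interactions of Mmp2 (-2.23, adjusted p = 0.0693), Mmp3 (-0.67, 0.675), Mmp14 (-1.44, 0.632) and Timp2 (-1.66, 0.312) were not called. That of Mmp14 was also lost without background correction (-1.04, adjusted p = 0.135) and with an offset of 16 (-1.21, 0.0579), and that of Mmp3 by the Cy5 level alone (-0.57, 0.108).

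Other genes of the system were read from 5 lists chosen with earlier results of these data known, so their counts are descriptions. Of 15 measured further members of the MMP and TIMP families, 3 were higher and 0 lower in obstruction/vehicle against sham/vehicle (median log2 difference 0.07), and 2 were higher and 3 lower in obstruction/Eviprostat against obstruction/vehicle (median -0.01). These 20% higher in the first and 20% lower in the second stand beside 15.8% and 14.5% of all genes, shares close to them. The counts include Mmp8 and Mmp20, which passed the filter on dim probes only through the group where each is high. Mmp8, the collagenase of neutrophil granules, had log2 ratios of 0.09, 0.12 and 0.27 on the obstruction/Eviprostat arrays, 2.01, 2.98 and 2.84 on the obstruction/vehicle arrays, 0.02, -0.18 and 0.02 on the sham/Eviprostat arrays and -0.10, -0.03 and -0.12 on the sham/vehicle arrays. It was above background on the obstruction/vehicle arrays only, so it had to differ to be measured at all and no test of it is given. The log2 ratios differed by 2.69 between obstruction/vehicle and sham/vehicle and by -2.45 between obstruction/Eviprostat and obstruction/vehicle. Mmp23 differed by 1.76 on the log2 scale in obstruction/vehicle against sham/vehicle (SE 0.10, limma adjusted p = 5.54e-08) and by -1.27 in obstruction/Eviprostat against obstruction/vehicle (SE 0.10, adjusted p = 1.37e-06). Mmp24, a membrane type, differed by 0.53 (limma adjusted p = 0.00536) and -0.57 (adjusted p = 0.0036), and Mmp1b, a gene of the cluster, by -0.21 (adjusted p = 0.163, not called) and 0.36 (adjusted p = 0.0222).

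Activators, inhibitors and surface partners of the enzymes were the next list, and 15 of 22 were higher and 1 lower in obstruction/vehicle against sham/vehicle (median 1.04). Of all genes 15.8% were called higher and 8.94% lower there. In obstruction/Eviprostat against obstruction/vehicle 2 were higher and 14 lower (median -0.67), beside 7.32 and 14.5% of all genes. Lcn2, a lipocalin that binds Mmp9, differed by 4.00 (SE 0.19, limma adjusted p = 1.95e-08) and -4.28 (SE 0.19, adjusted p = 1.38e-08). Plaur, the urokinase receptor, differed by 2.52 and -2.46, but it and 2 other genes of the list passed the filter only through the obstruction/vehicle arrays. Thbs2, a matrix protein that clears Mmp2, differed by 2.51 and -2.22 (SE 0.11 each), and Cd44, a surface receptor of Mmp9, by 2.34 and -2.33 (SE 0.13 each). A2m, alpha-2-macroglobulin, which traps proteinases, was 1.38 higher in obstruction/vehicle than in sham/vehicle (SE 0.09, limma adjusted p = 2.27e-07). Like Mmp7 and unlike the genes just named, A2m was called higher in obstruction/Eviprostat than in obstruction/vehicle, by 0.33 (limma adjusted p = 0.0217), a gene picked out after its values were seen.

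Of 17 measured ADAM and ADAMTS proteinases, related enzymes, 8 were higher and 1 lower in obstruction/vehicle against sham/vehicle (median 0.37), and 1 was higher and 6 lower in obstruction/Eviprostat against obstruction/vehicle (median -0.22). The shares of all genes were 15.8% higher and 8.94% lower in the first comparison, and 7.32 and 14.5% in the second. Adam17, which releases tumour necrosis factor from the cell surface, differed by 1.5 (SE 0.19, limma adjusted p = 8.34e-05) and -1.22 (adjusted p = 0.000505), and Adamts2, which trims procollagen, by 1.00 (SE 0.13, adjusted p = 0.000137) and -1.06 (adjusted p = 0.000105). Adamts8 differed by 0.89 and -0.83 and Adam15 by 0.79 and -0.42 on the log2 scale, all called.

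Matrix proteins that these enzymes cut were higher in obstruction/vehicle than in sham/vehicle for 17 of 21 measured genes and lower for 0 (median 1.42), and lower in obstruction/Eviprostat than in obstruction/vehicle for 18 and higher for 0 (median -1.15). Beside them, 15.8% of all genes were called higher and 8.94% lower in the first comparison, and 14.5% lower and 7.32% higher in the second. Col1a1, the main fibrillar collagen, differed by 3.16 (SE 0.17, limma adjusted p = 4.64e-08) and -2.57 (adjusted p = 3.67e-07), and Col1a2, its partner chain, by 2.14 and -1.93 (SE 0.12 each). Fn1, fibronectin, differed by 2.71 and -2.33 (SE 0.17 each), and Spp1, osteopontin, by 2.44 and -2.0 (SE 0.10 each). In sham rats 3 of the 21 were higher with Eviprostat than with vehicle, among them Col1a1 by 0.86 (limma adjusted p = 0.0194), beside 1.74% of all genes.

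Cytokines and transcription factors known to induce metalloproteinase genes were higher in obstruction/vehicle than in sham/vehicle for 15 of 21 genes and lower for 1 (median 1.00). Of all genes 15.8% were called higher and 8.94% lower there. In obstruction/Eviprostat against obstruction/vehicle 0 were higher and 14 lower (median -0.96), beside 7.32 and 14.5% of all genes. Il1b differed by 3.76 and -3.76 (SE 0.16 each) and Il1a by 3.41 and -3.38 (SE 0.17 each). Both are interleukin-1 cytokines, inducers of stromelysins and collagenases. Junb, a subunit of AP-1, differed by 2.75 and -2.33 (SE 0.12 each). Il6, which passed the filter only through the obstruction/vehicle arrays, differed by 2.02 and -1.98, with no test given.

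**Figure D4:**
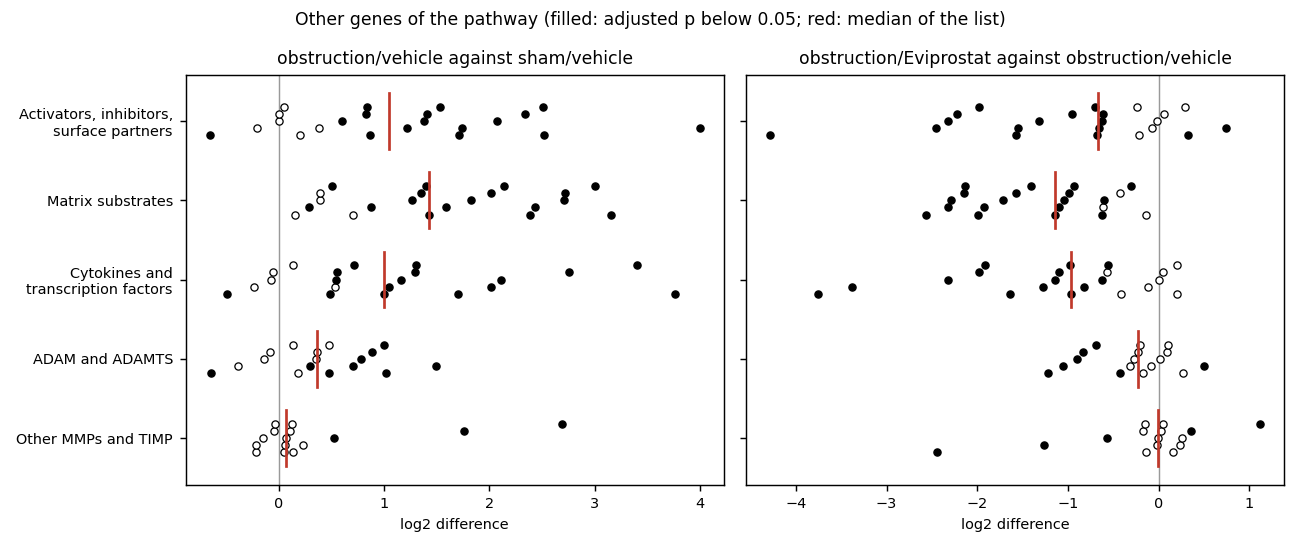
Log2 difference of each measured gene (points) in 5 lists (rows) for obstruction/vehicle against sham/vehicle and for obstruction/Eviprostat against obstruction/vehicle, with list medians in red; filled points have an adjusted p below 0.05. The median of the matrix substrates is 1.42 in the first and -1.15 in the second.

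Markers of several cell types differed between the same groups, and their part in the results above was not tested. Their counts stand beside 15.8% of all genes called higher and 8.94% lower in obstruction/vehicle against sham/vehicle. In obstruction/Eviprostat against obstruction/vehicle the shares of all genes were 7.32% higher and 14.5% lower. All 12 measured macrophage markers were higher in obstruction/vehicle than in sham/vehicle and lower in obstruction/Eviprostat than in obstruction/vehicle. Their mean log2 ratio was 0.31 to 0.34 in obstruction/Eviprostat, 2.05 to 2.30 in obstruction/vehicle, -0.01 to 0.07 in sham/Eviprostat and 0.00028 to 0.03 in sham/vehicle. Of 10 neutrophil markers 6 were higher and then 6 lower in these comparisons, with means of -0.01 to 0.09 in obstruction/Eviprostat, 1.66 to 1.80 in obstruction/vehicle, -0.13 to 0.02 in sham/Eviprostat and -0.05 to 0.00087 in sham/vehicle, and S100a8 and Mmp8 were above background on 0 sham/vehicle arrays. S100a8 and Mmp8 passed the filter only through the obstruction/vehicle arrays. All 11 fibroblast markers were higher and then lower, with means of 0.32 to 0.48 in obstruction/Eviprostat, 1.65 to 1.73 in obstruction/vehicle, 0.33 to 0.40 in sham/Eviprostat and -0.01 to 0.03 in sham/vehicle. Dcn, Col1a1 and Col3a1 stand in the fibroblast and the matrix list, and Mmp8 in the neutrophil and the family list.

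Smooth muscle markers were higher for 6 of 7 genes in obstruction/vehicle against sham/vehicle and lower for 5 in obstruction/Eviprostat against obstruction/vehicle. Urothelial markers were higher for 3 of 4 and then lower for 3. Of 11 luminal markers of the prostate epithelium, 2 were higher and 5 lower in obstruction/vehicle against sham/vehicle, and 5 were higher and 1 lower in obstruction/Eviprostat against obstruction/vehicle. Basal markers were higher for 3 of 5 and endothelial ones for 3 of 6, with 0 and 1 lower, in obstruction/vehicle against sham/vehicle. In obstruction/Eviprostat against obstruction/vehicle 1 basal marker was higher and 2 lower, and 1 endothelial marker was higher and 2 lower. Among all genes 15.8% were called higher and 8.94% lower in obstruction/vehicle against sham/vehicle, and 7.32 and 14.5% in obstruction/Eviprostat against obstruction/vehicle. Tek, an endothelial marker, and Acp3, a luminal one, passed the filter on dim probes only through the obstruction/vehicle arrays.

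Seminal vesicle markers, from the gland beside the prostate, had mean log2 ratios of 0.77 to 0.86 in obstruction/Eviprostat, 5.0 to 5.17 in obstruction/vehicle, 4.28 to 4.43 in sham/Eviprostat and 0.03 to 0.14 in sham/vehicle. In sham/Eviprostat against sham/vehicle 6 of 7 of them were higher, the comparison in which 0 of the 10 metalloproteinase and TIMP genes were called. Of all genes 1.74% were called higher there and 0.402% lower. Skeletal muscle markers had means of -0.80 to -0.64 in obstruction/Eviprostat, -1.81 to -1.74 in obstruction/vehicle, 1.31 to 1.55 in sham/Eviprostat and -0.02 to 0.35 in sham/vehicle, and 7 of 8 were higher in that same comparison.

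Genes whose pattern was most like that of a member were ranked by the root mean square difference of the log2 ratios over the 12 arrays, each gene centred on its mean, among 14466 genes. This was done for Mmp7, Mmp9 and Timp1, whose group means spanned at least 2 log2 units. Nearest to Mmp9 were Hmox1, heme oxygenase 1 (0.0795), Ifit3, an interferon-induced gene (0.125), and Plaur (0.136), against a root mean square span of 1.1 for Mmp9 itself. Ifit3 was above background on 8 of the 12 arrays and Plaur on 5. Plaur passed the filter on dim probes only through the obstruction/vehicle arrays, where it is high. Nearest to Timp1 were Crisp3 (0.368), Anxa1, annexin A1 (0.496), and the chemokine gene Ccl6 (0.561), with Timp1 itself at 1.79. Crisp3 differed by 4.32 in obstruction/vehicle against sham/vehicle and by -2.73 in obstruction/Eviprostat against obstruction/vehicle.

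Nearest to Mmp7 were Gys2, liver glycogen synthase (0.608), Sult1b1, a sulfotransferase (0.8), and Nmu, neuromedin U (0.821), all farther from it than the genes above were from Mmp9. Gys2 differed by 2.68 on the log2 scale in obstruction/Eviprostat against obstruction/vehicle, but also by -1.56 in sham/Eviprostat against sham/vehicle, where the log2 difference of Mmp7 was -0.02. Sult1b1 and Nmu differed by 1.64 and 1.29 between the obstructed groups. Nmu was above background on only 5 of the 12 arrays, and Gys2 and Sult1b1 on all 12.

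**Figure D5:**
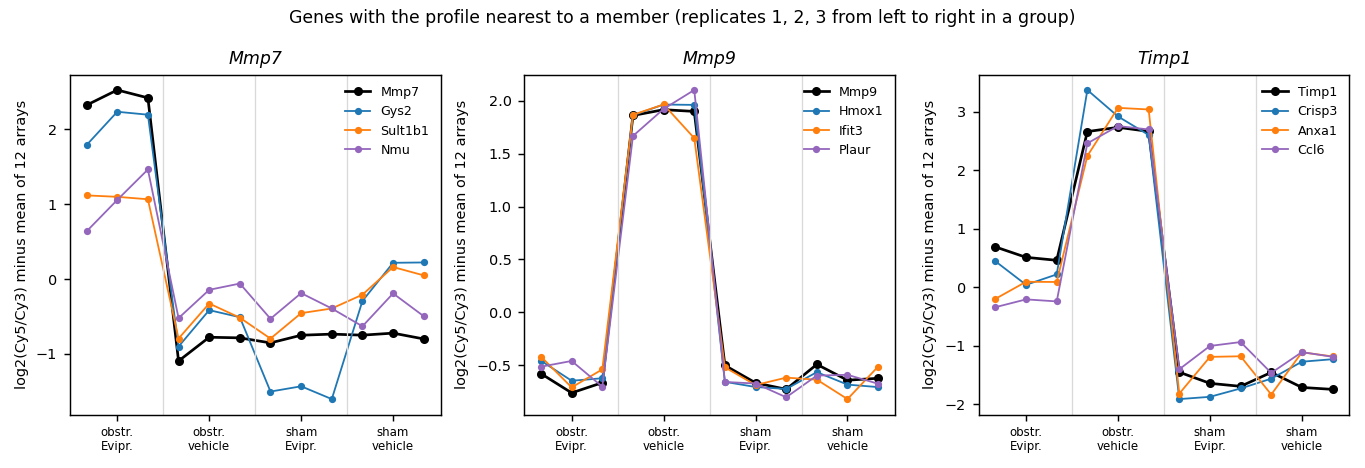
Log2(Cy5/Cy3) centred on the mean of the 12 arrays (vertical axes) for Mmp7, Mmp9 and Timp1 and the 3 genes nearest to each, by array (horizontal axis). The genes nearest to Mmp9 lie almost on it, while Gys2 drops below Mmp7 on the sham/Eviprostat arrays.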

How the data were processed

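Two-colour Agilent rat arrays were read as deposited, 1 file for each of 12 arrays. Per the file headers, the authors extracted the images with version 9.5.1.1 of Agilent's Feature Extraction software. The files hold the deposited spot intensity and local background in Cy5 and Cy3, with probes annotated on rn3. The deposited log10 ratio of the scanner software, already background-subtracted and dye-normalized per the file headers, equals the series' value table (largest difference 0) and was used as an alternative. Cy5 held the group's RNA and Cy3 sham/vehicle RNA, and 1500 ng of sham/vehicle RNA and 300 ng of the others were labelled, per the labels' protocols.

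Mean signals were corrected by normexp (offset 50) in limma 3.58.1 (R 4.3.3), after 12 spots lying more than 100 units below their background had been set aside, a step chosen after seeing the data. Loess within arrays followed, and spots of a probe were averaged. Outlier-flagged and control spots were left out. A probe was kept if at least 3 arrays had its Cy5 signal well above background (36098 of 41012). A gene is represented by its brightest kept probe. One limma fit of 4 group means (8 residual degrees of freedom) gave all comparisons, with Benjamini-Hochberg adjustment over all kept probes. The number of arrays limits the precision.

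Arrays of the same replicate number shared a slide. Their deviations from the group means correlated at 0.389 to 0.816 over 18 pairs. Over 36 pairs of different numbers the correlations ran from -0.732 to 0.622, with a median of -0.491, so the ranges overlap. Deviations from a mean of 3 arrays sum to 0, so the negative median is not separate support. The shared slide is what pairs the arrays. On simulated data for obstruction/vehicle against sham/vehicle (36098 probes), 26, 84, 98 and 100% of probes changed by 0.5, 1, 2 and 3 on the log2 scale were recovered. Of the simulated calls 5.52% were false. The simulated arrays were independent, without the slide pairing, and only 200 probes were changed, far fewer than were called in the real arrays. Recovery there may therefore differ. Probes were named through accession, symbol or synonym in RefSeq tables or by the array's own symbol; 20758 were left without a name. All 10 members are named; from each list, up to 4 genes with the smallest adjusted p in obstruction/vehicle against sham/vehicle; and 3 nearest genes for members spanning 2 log2 units. The members and lists were chosen with earlier results of these data known. Alternatives covered background correction, scaling, filters, probe choice, the slide block, fewer slides and leaving out each array.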

Additional observations from a re-analysis of the deposited data

Results flagged for a closer look

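An effect of Eviprostat that differed between obstructed and sham rats in the interaction of the limma fit singled out 8 of the 10 genes. The differences, obstructed minus sham on the log2 scale, were 3.33 for Mmp7, -2.52 for Mmp9, -2.18 for Timp1, -1.945 for Mmp2 by its brighter probe and -0.573 by its other probe. They were -1.48 for Timp2, -1.198 for Mmp12, -1.19 for Mmp14 and -0.651 for Mmp3. The groups held 3 arrays each, too few for a check of single arrays against their group.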

How the results depend on the processing

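Of the values of single probes under all alternatives, 1495 kept their direction and their side of the threshold, 58 values called in neither setting changed sign, 50 lost a call, 24 gained one and 0 called values reversed. Mmp7 in obstruction/Eviprostat against obstruction/vehicle (log2 difference 3.02 to 3.57), and Mmp9 (1.36 to 3.19) and Timp1 (4.02 to 5.28) in obstruction/vehicle against sham/vehicle, stayed called under every alternative run. Mmp3 ranged from 0.13 to 1.91 in obstruction/vehicle against sham/vehicle, called or not. Median centring in place of loess lost 13 calls. Under it 4 genes, not 6, were higher in obstruction/vehicle against sham/vehicle, 4, not 7, were lower in obstruction/Eviprostat against obstruction/vehicle, 3, not 7, had a more negative effect in obstructed rats, and 0, not 1, was lower in obstruction/Eviprostat against sham/Eviprostat. That last count was also 0 without background correction and with the mean of all kept probes, 2 with the replicate block, 4 on slides 2 and 3 only, and 0 to 1 when 1 array was left out. Genes lower in obstruction/Eviprostat against sham/vehicle numbered 0 as reported, 1 by the scanner software's log ratio, 1 with the replicate block and 2 on slides 2 and 3 only; genes higher in sham/Eviprostat against sham/vehicle numbered 0, 1, 1 and 2 in the same order. The causes were not tested. The replicate block changed no call other than those given above. Normexp on all spots lost 4 calls, all of Mmp3 and Mmp14. Requiring signal above background on all 12 arrays removed Mmp3.

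The split of all calls between higher and lower depended on scaling. In obstruction/vehicle against sham/vehicle 63.9% of calls were higher, against 88.7% with median centring and 44.4% by the scanner's ratio. In obstruction/Eviprostat against obstruction/vehicle the shares in that order were 33.6, 12.2 and 54.4%, for the interaction 30.1, 6.57 and 49.6%, and in sham/Eviprostat against sham/vehicle 81.3, 98.8 and 67%. With median centring the share was 88.9%, against 62.8%, in obstruction/Eviprostat against sham/vehicle and 16.8%, against 31.1%, in obstruction/Eviprostat against sham/Eviprostat.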
